A study of Mus musculus with 12 samples.

Results

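The kidney that remained after unilateral nephrectomy (UNx), the surgical removal of 1 kidney, was compared between 3 CrePlus and 3 CreMinus mice of a Pkd1 model. Samples were chosen by their descriptions, and 6 of the 12 libraries in the deposited count table entered the comparison. Library numbers were 1753, 1751 and 1754 for UNx CrePlus replicates 1, 2 and 3, and 1752, 1750 and 1749 for UNx CreMinus replicates 1, 2 and 3. All 12 mice were adults aged 6 to 8 weeks and, by the labels' protocol, had been given tamoxifen, a drug used to switch on inducible forms of the Cre recombinase. Kidney tissue was taken 4 weeks after surgery, and total RNA was sequenced. The other 6 libraries came from mice that kept both kidneys after a sham operation, 3 CrePlus and 3 CreMinus. CrePlus mice carried Cre and CreMinus mice did not, and every group shared the Pkd1 background and the tamoxifen. The labels name neither the promoter that drives Cre nor the Pkd1 allele, the strain or the cells in which Cre acts. They give 3 mice per group and list 1 library per sample.

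Pkd1 encodes polycystin-1, a large membrane protein that forms a complex with polycystin-2, the product of Pkd2, in the primary cilium and other membranes of tubule cells. Loss of this complex in the kidney leads to fluid-filled cysts that arise from the tubules. When Pkd1 is lost in adult mice, cysts form slowly, and injury or growth of the kidney is known to speed them up. Removal of 1 kidney makes the remaining one enlarge, which is why UNx is used in such models. The title of the study concerns IRF5, a transcription factor of the interferon regulatory factor family, in kidney macrophages.

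Of 24062 genes in the table, 14970 had enough counts to be tested. All UNx CrePlus libraries were deep, with summed counts of 41699032 to 42785476. Of the UNx CreMinus libraries, replicate 1 was as deep, and replicates 2 and 3 had 21964896 and 18914300. Levels are given in CPM, the count divided by the scaled size of its library, in the order of replicates 1, 2 and 3. The labels give no sex, so it was read from the counts of 4 Y-linked genes and Xist. UNx CrePlus held 2 males and 1 female (replicate 3), UNx CreMinus held 1 male (replicate 1) and 2 females, and each sham group held 1 male. The first principal component of the 6 UNx libraries, with 51.2% of the variance, placed the 3 males on one side and the 3 females on the other. Differences are given over all libraries and, for some of the lists and genes, also within each sex, where 1 of the groups is a single library.

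Pkd1 itself was measured at 45.5, 39.6 and 45.1 CPM in UNx CrePlus libraries and at 49.4, 49.3 and 71.6 CPM in UNx CreMinus libraries. All CrePlus libraries were below all CreMinus libraries, but the log2 fold change of -0.39 ± 0.18 (standard error, SE) did not pass, with an adjusted p of 0.482. The difference was -0.22 within males and -0.40 within females. A gene-level count also holds reads from exons that a Cre deletion leaves in place, and the labels do not say which exons are removed. The count therefore checks the Cre labels only in part. Irf5 stood at 14.9, 27.6 and 11.3 CPM in UNx CrePlus and at 15.4, 11.2 and 13.2 CPM in UNx CreMinus libraries. These groups overlapped, and the log2 fold change of 0.43 ± 0.28 had an adjusted p of 0.631. Within males the difference was 0.40 and within females -0.11.

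After UNx, 21 genes changed with Cre at an adjusted p under 0.05 in edgeR's quasi-likelihood test, which was 0.14% of the genes tested. Expression rose for 18 of them (0.12%) and fell for 3 (0.02%). The genes that rose included targets of the tumour suppressor p53 (Cdkn1a, Zmat3, Eda2r and Plk2), 2 genes of cystic kidney disease (Pkd2 and Glis2), the chondroitin polymerizing factor Chpf and the prostaglandin D2 synthase Ptgds. Those that fell were Uroc1, Lad1 and Reep6. The 3 CrePlus libraries lay apart from the 3 CreMinus libraries for all 21, a separation that 15.8% of all tested genes showed (8.33% with CrePlus above and 7.47% with CrePlus below). At an unadjusted p under 0.05, 920 genes (6.15%) were higher and 678 (4.53%) lower. The median size of the log2 fold change among the 21 was 0.97, and the smallest was 0.46. A fit that added a term for sex called 112 genes (0.748%), 71 higher and 41 lower, and these included all 21. The authors' deposited table called 267 genes, 1.84% of the genes with an adjusted p in it (1.26% higher and 0.578% lower), and these also included all 21. Other fits called fewer genes, namely 9 from the UNx libraries alone, 8 with terms for sex and depth, and 1 in the 4 deep UNx libraries, which was not one of the 21. Of the 9 genes, 1 was not among the 21, and of the 8 genes, 2 were not. DESeq2 called more, 188 genes. Counts thinned to the smallest library total gave 23 genes, 3 of them not among the 21. Depth in UNx libraries moved with Cre, and its part in the result was not tested beyond these fits.

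The number of genes called depended on single libraries. It was 48 without UNx CrePlus replicate 3, the only female of that group, and 6 to 11 when any other UNx library was left out. Without sham CrePlus replicate 2 it was 10, and without any 1 of the 3 sham CreMinus libraries it was 13. Chpf, Uroc1, Ptgds, Zmat3, Cables2 and Eda2r were called in each of the 12 fits that left out 1 library, and Cdkn1a in 11. At the other end, Pkd2 and Ajuba were called in 1 and Cdc42bpa in 0 of these 12 fits. Zfp185 was called in 2, Clca1, Msn, Pcdh7 and Reep6 in 3, and Lad1 in 4 of them. Ifit2, Il1rap and Plk2 were called in 5, and Glis2 and 2610034B18Rik in 9. Just inside the threshold stood Reep6 and Pcdh7 at an adjusted p of 0.0482 and Cdc42bpa at 0.0495. Just outside, at 0.0522, stood the chemokine gene Cxcl16, Aldh1a7 and Ninl.

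**Figure D1:**
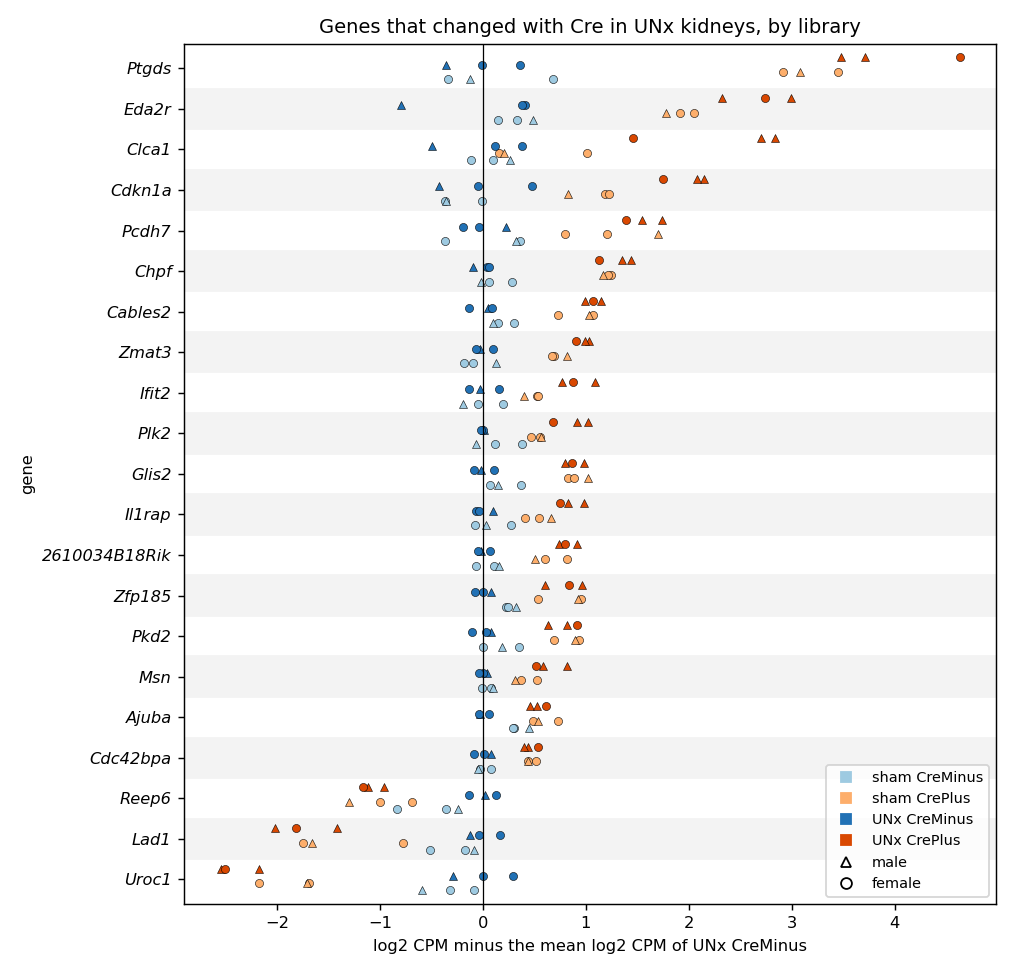
Level of the 21 genes that changed with Cre in UNx kidneys, 1 gene a row. The x axis is log2 CPM minus the mean log2 CPM of the 3 UNx CreMinus libraries, and each symbol is 1 library, coloured by group, a triangle for a male and a circle for a female. UNx CrePlus libraries (dark orange) lie to the right of UNx CreMinus libraries (dark blue) in 18 rows and to the left in 3.

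The p53 targets had the most called members of the 47 lists, which were chosen with earlier results of these data known. p53 is a transcription factor that is switched on by DNA damage and other stress and that holds the cell cycle through Cdkn1a. Of 29 list members tested, 4 rose, 0 fell and 25 did not pass, whereas 0.12% of all tested genes rose. Of the 29, 25 had a log2 fold change above 0. The median of the list was 0.31, against -0.01 over all genes tested, of which 47.8% were above 0. Within males the list's median difference was 0.56 and within females 0.16.

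Cdkn1a, which encodes the cyclin-dependent kinase (CDK) inhibitor p21, stood at 49.1, 46.8 and 37.3 CPM in UNx CrePlus libraries. In UNx CreMinus libraries it stood at 8.23, 15.4 and 10.7 CPM. All CrePlus libraries were above all CreMinus libraries, with a log2 fold change of 1.96 ± 0.22 and an adjusted p of 0.00635. Zmat3, a zinc finger protein that binds RNA, was at 55.0, 53.6 and 50.4 CPM against 26.4, 28.9 and 25.7 CPM. The groups were far apart compared with their spread, and the log2 fold change was 0.97 ± 0.09 (adjusted p = 0.0019). Eda2r, a receptor for ectodysplasin A2, was at 7.44, 4.68 and 6.23 CPM in CrePlus libraries and at 0.54, 1.24 and 1.22 CPM in CreMinus libraries. No library of one group reached the other, and its log2 fold change of 2.65 ± 0.31 had an adjusted p of 0.00738. Plk2, a polo-like kinase, was at 20.05, 21.5 and 17.0 CPM with Cre and at 10.7, 10.6 and 10.5 CPM without. It rose by 0.88 ± 0.13 on the log2 scale (adjusted p = 0.0333), and the groups did not overlap. Unlike the first 3, Plk2 was called in 5 of the 12 fits that left out 1 library.

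Among the cyclins and CDK inhibitors, 2 of 16 tested members rose, against 0.12% of all tested genes, 0 fell, and 13 were above 0. Besides Cdkn1a this was Cables2, a relative of Cables1, which links CDKs to other kinases. Cables2 was at 29.4, 26.5 and 28.0 CPM in CrePlus libraries and at 13.8, 12.1 and 14.1 CPM in CreMinus libraries. Its groups stood apart by a log2 fold change of 1.07 ± 0.11, with an adjusted p of 0.0039. Cables1 had the opposite sign, at 10.8, 7.63 and 14.3 CPM against 20.1, 21.5 and 20.9 CPM, and did not pass (adjusted p = 0.278). Cdkn2c, the CDK inhibitor p18, had a log2 fold change of 0.68 ± 0.16 and did not pass either (adjusted p = 0.195). The median of the list was 0.40, with 0.48 within males and 0.08 within females.

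**Figure D2:**
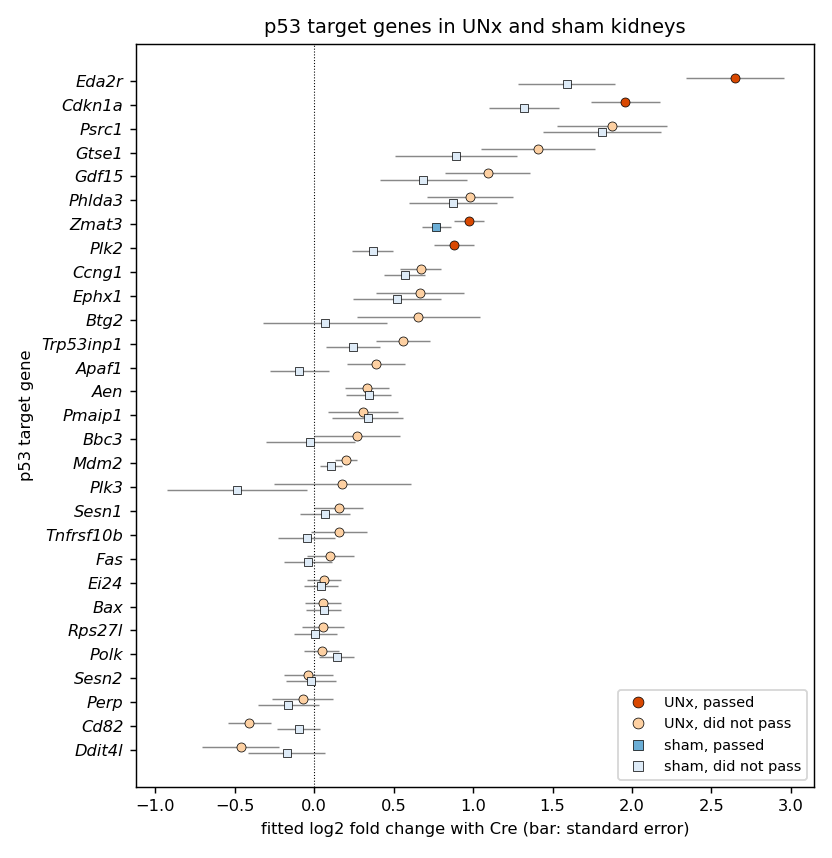
Fitted log2 fold change with Cre of the 29 tested p53 target genes (y axis), in UNx kidneys (circles) and in sham kidneys (squares), with bars for the standard error. Dark symbols passed an adjusted p of 0.05: 4 genes in UNx kidneys (Eda2r, Cdkn1a, Zmat3 and Plk2) and Zmat3 in sham kidneys.

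Promoter sequences were searched for 10 short motifs in the 250 bases before each transcript start, on both strands, in 32851 RefSeq promoters of the build GRCm38.p6. Entries were found for 17 of the 21 called genes, with 20 starts. The p53 half-site, the unit of the p53 binding element, was present before 6 of these 20 starts (30.0%) and in 7.13% of all promoters. Of the 6 genes, Cdkn1a was in the p53 list, and Pcdh7, 2610034B18Rik, Ajuba, Il1rap and Ifit2 were not. The windows of Plk2 and Eda2r held no match. The cAMP response element TGACGTCA was present before 2 of 20 (10.0%), those of Chpf and Plk2, and in 1.55% of all promoters. The TEAD site GGAATG was before 5 of 20 starts (12.6% of all promoters), the GC box GGGCGG before 10 (32.7%) and the antioxidant response element TGACNNNGC before 2 (10.2%). Before 1 of 20 starts each stood the TATA box TATAAA (12.4% of all), the AP-1 site TGANTCA (6.75%), the E-box CACGTG (6.02%) and the interferon-stimulated response element (2.98%). The NF-kB site was at 0 of 20 and in 0.14% of all. Matches of different motifs may overlap, a match is a string of letters only, and binding was not measured.

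Shown are 3 promoters, each 5′ to 3′ on the gene's strand, with the matched motif in capitals, because they hold the p53 half-site or the cAMP response element in genes that changed. The first is before the upstream start of Cdkn1a (chr17:29090729-29090978, plus strand), with 2 p53 half-sites, a number that 0.259% of promoters held. The second is that of Chpf (chr1:75479472-75479721, minus strand), with 2 cAMP response elements, as in 0.0304% of promoters. The third is that of Plk2 (chr13:110394794-110395043, plus strand), with 1 cAMP response element.
Cdkn1a: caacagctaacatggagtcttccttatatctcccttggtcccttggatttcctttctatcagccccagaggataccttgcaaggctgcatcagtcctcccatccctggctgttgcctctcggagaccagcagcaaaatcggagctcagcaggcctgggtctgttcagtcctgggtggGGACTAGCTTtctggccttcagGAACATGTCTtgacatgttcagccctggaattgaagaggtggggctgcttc
Chpf: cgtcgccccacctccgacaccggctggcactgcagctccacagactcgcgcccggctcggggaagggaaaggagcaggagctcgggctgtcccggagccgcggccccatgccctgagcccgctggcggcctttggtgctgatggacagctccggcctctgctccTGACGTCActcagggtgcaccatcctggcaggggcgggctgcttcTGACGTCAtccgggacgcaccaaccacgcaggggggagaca
Plk2: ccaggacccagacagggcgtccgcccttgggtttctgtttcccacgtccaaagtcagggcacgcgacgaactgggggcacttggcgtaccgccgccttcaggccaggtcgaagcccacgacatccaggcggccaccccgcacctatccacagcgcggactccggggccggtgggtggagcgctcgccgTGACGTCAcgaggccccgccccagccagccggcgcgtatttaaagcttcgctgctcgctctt

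Chpf and Uroc1 had the smallest adjusted p of all genes, 0.000823. Chpf works with the chondroitin synthases that build the sugar chains of chondroitin sulfate, a component of the extracellular matrix. It was at 51.9, 49.1 and 42.0 CPM in UNx CrePlus libraries and at 18, 19.7 and 19.96 CPM in UNx CreMinus libraries. The groups were far apart, with a log2 fold change of 1.31 ± 0.10, and the promoter printed above with 2 cAMP response elements is that of this gene. Of the 14 chondroitin synthesis enzymes tested, Chpf rose, 0 fell and 13 did not pass, whereas 0.12% of all tested genes rose. Among the others, Chsy1, a chondroitin synthase, had a log2 fold change of 0.70 ± 0.31 with overlapping groups (adjusted p = 0.466). B3gat3, which completes the linker of the chain, was at -0.22 ± 0.08 (adjusted p = 0.404).

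Uroc1 encodes urocanase, an enzyme of histidine breakdown. Its level was 19.1, 24.6 and 19.5 CPM in UNx CrePlus libraries and 90.5, 111 and 136 CPM in UNx CreMinus libraries. Every CrePlus library was far below every CreMinus library, and the log2 fold change was -2.42 ± 0.20. The next enzymes of the pathway, Amdhd1 and Ftcd, did not pass, with log2 fold changes of 0.13 ± 0.41 and -0.28 ± 0.76 and overlapping groups.

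Ptgds, which makes prostaglandin D2, showed the largest log2 fold change among the 21. It was at 35.3, 41.2 and 78.1 CPM in CrePlus libraries and at 2.47, 4.05 and 3.14 CPM in CreMinus libraries. All CrePlus libraries were above all CreMinus libraries, the female highest, and the log2 fold change was 4.01 ± 0.37 (adjusted p = 0.0019). Ptgds was the 1 called gene of 17 prostaglandin enzymes and receptors tested, whereas 0.12% of all tested genes rose. The median log2 fold change of the 17 was -0.05. Hpgds, the other prostaglandin D2 synthase, was at 0.96 ± 0.37 (adjusted p = 0.418), and Ptges, a prostaglandin E synthase, was at -0.68 ± 0.25 (adjusted p = 0.404).

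Among genes whose mutation gives cystic kidneys, 2 of 25 tested rose, against 0.12% of all tested genes, and 0 fell. Of the 25, 12 were above and 13 below 0. Pkd2 was at 457, 401 and 487 CPM in UNx CrePlus libraries and at 272, 264 and 240 CPM in UNx CreMinus libraries. The groups did not overlap, and the log2 fold change was 0.79 ± 0.12 (adjusted p = 0.0482). Glis2, a zinc finger transcription factor of the nephronophthisis group, was at 345, 304 and 319 CPM against 173, 189 and 165 CPM. It rose by 0.88 ± 0.11 (adjusted p = 0.00936) and, like Pkd2, showed no overlap. Of the 12 fits that left out 1 library, 9 called Glis2 and 1 called Pkd2. The library kit does not mark the strand, so reads in stretches shared with another annotated gene could not be separated. This touches 10 of the 21 called genes, namely Glis2 (which overlaps Pam16), Cdc42bpa (which overlaps Coq8a), Zmat3, Eda2r, 2610034B18Rik, Il1rap, Msn, Zfp185, Reep6 and Pcdh7. Anks6 at -0.24 ± 0.11 and Dnajb11 at 0.39 ± 0.18, a chaperone of polycystin-1, did not pass.

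Msn, Pcdh7, Zfp185, Cdc42bpa and 2610034B18Rik also rose. Msn, or moesin, which ties actin to the plasma membrane, was at 386, 330 and 315 CPM with Cre and at 226, 221 and 214 CPM without. Pcdh7, a protocadherin, was at 23.9, 20.9 and 18.7 CPM against 8.38, 6.99 and 6.28 CPM. Neither gene's groups overlapped, and the log2 fold changes were 0.64 ± 0.10 for Msn and 1.55 ± 0.25 for Pcdh7 (adjusted p = 0.0482 for both). Zfp185, an actin-associated protein, was at 30.2, 23.6 and 27.7 CPM in CrePlus libraries and at 16.4, 14.7 and 15.6 CPM in CreMinus libraries. It rose by 0.80 ± 0.13 with separate groups (adjusted p = 0.0482). Cdc42bpa, a kinase that acts downstream of Cdc42, had the smallest change called, 0.46 ± 0.07, at 120, 117 and 129 CPM against 93.2, 83.6 and 89.0 CPM. Its groups stood apart, yet this call was lost in all 12 fits that left out 1 library. 2610034B18Rik was at 45.2, 40.3 and 41.9 CPM against 23.7, 25.3 and 23.2 CPM, again without overlap, with a log2 fold change of 0.82 ± 0.10 (adjusted p = 0.00936).

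Ajuba, a scaffold protein of the Hippo pathway, was the 1 called gene of 14 YAP targets tested, whereas 0.12% of all tested genes rose. Of the 14, 12 were above 0, against 47.8% of all tested genes. The list's median difference was 0.48 within males and 0.14 within females, where 8 of 14 were above 0. Ajuba was at 40.6, 42.6 and 45.2 CPM in CrePlus libraries and at 29.1, 28.9 and 30.8 CPM in CreMinus libraries. The groups did not overlap, and the log2 fold change was 0.53 ± 0.08 (adjusted p = 0.0482). F3, the tissue factor gene, was at 0.54 ± 0.23 and did not pass (adjusted p = 0.453).

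Lad1, or ladinin-1, a protein of the anchoring filaments beneath epithelia, was at 46.3, 70.1 and 53.4 CPM in CrePlus libraries. CreMinus libraries had 172, 182 and 211 CPM, so the groups lay far apart, and Lad1 fell by 1.74 on the log2 scale (SE 0.25, adjusted p = 0.0359). It was the 1 called gene of 11 epithelial anchoring genes, whereas 0.02% of all tested genes fell. Of the 11, 9 were above 0, against 47.8% of all tested genes. Frem2, a basement membrane protein, was at 0.52 ± 0.14, Lamb3, a laminin chain, at 1.24 ± 0.47 and Itgb4, an integrin chain, at 0.67 ± 0.27. In these 3 genes all CrePlus libraries were above all CreMinus libraries, as in 8.33% of all tested genes. None of the 3 passed (adjusted p = 0.258, 0.408 and 0.437). Reep6, a protein that shapes the endoplasmic reticulum, was at 37.0, 41 and 35.5 CPM against 80.8, 87.0 and 72.5 CPM. Reep6 fell by 1.08 (SE 0.17) with separate groups.

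The other 3 called genes were Il1rap, Ifit2 and Clca1. Il1rap, the co-receptor of the interleukin-1 receptor, was at 16.9, 18.9 and 16.1 CPM with Cre and at 10.3, 9.15 and 9.32 CPM without. Ifit2, an interferon-induced protein, was at 27.5, 22 and 23.6 CPM against 12.7, 14.4 and 11.8 CPM. Neither gene's groups overlapped, and the log2 fold changes were 0.85 ± 0.12 for Il1rap and 0.91 ± 0.13 for Ifit2 (adjusted p = 0.0333 for both). Clca1, a secreted protein that acts on chloride channels, was at 21.6, 19.6 and 8.29 CPM in CrePlus libraries and at 2.13, 3.27 and 3.90 CPM in CreMinus libraries. The 2 CrePlus males were highest and the CrePlus female lay between them and the CreMinus libraries. Its log2 fold change was 2.42 ± 0.38 (adjusted p = 0.0482), with a difference of 3.22 within males and 1.20 within females. Clca1 belongs to a family of similar genes. Reads shared between family members could make its level uncertain, which was not tested.

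The same contrast in sham kidneys used 6 libraries that the UNx comparison did not, although the fit shared its estimate of the spread. All 21 genes had the same sign in sham kidneys, and in 19 the sham CrePlus and CreMinus libraries did not overlap, against 8.16% of all tested genes (4.66% with CrePlus above and 3.49% below). At an adjusted p under 0.05, 4 of the 21 passed in sham kidneys (0.0267% of all genes, 0.02% higher and 0.00668% lower, and no gene outside the 21 passed), namely Chpf, Uroc1, Ptgds and Zmat3. This count of 4 fell to 0 without sham CreMinus replicate 2, was 3 without sham CreMinus replicate 3 or UNx CreMinus replicate 1 or 2, and was 1 or 2 without any other library. The median size of their log2 fold change was 0.97 in UNx and 0.65 in sham kidneys for the 21, and 20 of 21 were larger in UNx kidneys, where they had been called. Chpf was at 45.6, 44.5 and 43.2 CPM in sham CrePlus libraries and at 23.3, 20.1 and 19 CPM in sham CreMinus libraries. Ptgds was at 34.5, 23.8 and 26.7 CPM against 2.49, 5.07 and 2.90 CPM. For neither gene did the sham groups overlap. All 3 sham CrePlus libraries were below all 3 UNx CrePlus libraries for Ptgds, whose interaction of 0.99 did not pass (adjusted p = 1).

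Uroc1 was at 34.3, 24.6 and 34.0 CPM in sham CrePlus libraries and at 105, 88.6 and 73.5 CPM in sham CreMinus libraries. The sham groups were separate, with a log2 fold change of -1.52 ± 0.19, against -2.42 ± 0.20 after UNx. Clca1 stood at 6.06, 3.35 and 3.46 CPM in sham CrePlus and at 3.21, 2.77 and 3.60 CPM in sham CreMinus libraries. These sham groups overlapped, unlike the UNx groups. The interaction of Cre and surgery, which tests whether the Cre difference itself differs between UNx and sham kidneys, passed for 0 of 14970 genes in edgeR and also in DESeq2. At an unadjusted p under 0.05 it counted 277 genes in edgeR, 8 of them among the 21. Among males alone, in a fit with 1 residual degree of freedom, the interaction passed for 116 genes, and a difference between UNx and sham kidneys was not shown for any gene over all libraries.

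Of the immune lists, macrophage markers, MHC class II genes, chemokines, interferon-stimulated genes and T and NK cell markers had medians above 0. So did interferon regulatory factors, complement genes and neutrophil markers, and Ifit2 was the 1 gene in these lists that passed. Complement genes had 9 of 12 above 0 at a median of 0.42 (1.01 within males and 0.27 within females), with log2 fold changes from -2.19 to 2.49. Macrophages are phagocytes that collect in cystic kidneys, and major histocompatibility complex (MHC) class II proteins present antigen on macrophages, dendritic cells and B cells. Of 21 macrophage markers tested, 0 rose and 0 fell, 20 were above 0, and the median log2 fold change was 1.13. In 17 of the 21, all CrePlus libraries were above all CreMinus libraries, against 8.33% of all tested genes. The summed level of the 21 markers was 412, 463 and 239 CPM in UNx CrePlus libraries and 196, 226 and 210 CPM in UNx CreMinus libraries. The CrePlus males held about the same high level and the CrePlus female was just above the CreMinus libraries. Sham libraries held 171 to 440 CPM without Cre and 185 to 342 CPM with Cre, so the highest sham CreMinus library was above UNx CrePlus replicates 1 and 3. In bulk tissue, more cells of a type and more RNA per cell cannot be told apart.

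Ctss, the lysosomal protease cathepsin S, was at 30.1, 36.7 and 18.6 CPM in CrePlus libraries and at 10.9, 13.4 and 11.6 CPM in CreMinus libraries. Its groups did not overlap, and the log2 fold change of 1.26 ± 0.43 had an adjusted p of 0.378. Cx3cr1, the fractalkine receptor, C1qb, a chain of complement C1q, and Itgax, the integrin CD11c, had log2 fold changes of 1.30 ± 0.46, 1.13 ± 0.40 and 1.37 ± 0.45. None of these 3 passed either (adjusted p = 0.389, 0.388 and 0.374). The median difference of the 21 markers was 1.47 within males and 0.23 within females, with 21 and 19 of them above 0. In the authors' deposited table, 9 of the 21 markers had an adjusted p under 0.05, all higher in CrePlus, against the 1.26% of all genes called higher there.

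All 7 MHC class II genes were above 0, with a median log2 fold change of 0.86. In all 7 the CrePlus libraries were above every CreMinus library, against 8.33% of all tested genes. The summed level of the 7 was 640, 901 and 595 CPM in UNx CrePlus libraries and 346, 408 and 386 CPM in UNx CreMinus libraries. Sham libraries held 366 to 689 CPM without Cre and 405 to 803 CPM with Cre, so the highest library of each sham group was above UNx CrePlus replicates 1 and 3. Unlike the macrophage markers, the CrePlus female was close to 1 of the CrePlus males, and the median differences were 1.08 within males and 0.54 within females. Ciita, the transcription factor that switches on class II genes, was at 9.48, 9.92 and 9.20 CPM against 5.35, 4.83 and 4.66 CPM. The 3 CrePlus libraries were nearly level and far from the others, with a log2 fold change of 0.94 ± 0.29, yet the adjusted p was 0.331. H2-DMb1 and H2-DMa, which load peptides onto class II molecules, were at 0.66 ± 0.14 and 0.76 ± 0.18 (adjusted p = 0.128 and 0.195). With a term for sex, H2-DMb1 was the 1 gene of the 7 that passed, at an adjusted p of 0.0305. The authors' deposited table called all 7 higher, against the 1.26% of all genes called higher there.

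Among 12 macrophage chemokines and growth factors tested, 11 were above 0, with a median of 1.07 (1.13 within males and 0.36 within females), and 0 passed. Cxcl16, a chemokine bound to the cell membrane, came closest, at 85.2, 83.4 and 81.2 CPM against 49.0, 53.4 and 53.5 CPM. The groups were well separated at 0.68 ± 0.11, with an adjusted p of 0.0522, and 0.0226 with a term for sex. Cxcl10, an interferon-induced chemokine, was at 11.2, 13.3 and 6.43 CPM against 4.81, 3.40 and 3.04 CPM, and Ccl5 was at 2.60, 3.35 and 1.79 CPM against 0.746, 0.414 and 0.912 CPM. Both had groups that did not overlap, and neither passed (adjusted p = 0.23 and 0.291). In 6 of the 12 all CrePlus libraries were above all CreMinus libraries, against 8.33% of all tested genes.

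Interferon-stimulated genes had 1 of 23 members called, Ifit2, whereas 0.12% of all tested genes rose. Of the 23, 22 were above 0, with a median of 0.44 (0.55 within males and 0.18 within females). In 15 of the 23 the CrePlus libraries were above all CreMinus libraries, against 8.33% of all tested genes. Gbp2 and Gbp7, guanylate-binding proteins, were at 0.80 ± 0.23 and 0.50 ± 0.14 (adjusted p = 0.31 for both). Of the 9 interferon regulatory factors tested, 8 were above 0, with a median of 0.43 (0.52 within males and 0.04 within females), and 0 passed. The lowest adjusted p among them was that of Irf1, 0.378, at 0.44 ± 0.15. T and NK cell markers were low throughout, at 10.0 to 18.3 summed CPM in UNx CrePlus and 6.02 to 9.48 in UNx CreMinus libraries. Sham libraries held 4.37 to 14.3 CPM without Cre and 5.93 to 10.2 CPM with Cre. The highest sham CreMinus library was thus above UNx CrePlus replicates 1 and 3. In the UNx comparison, 9 of 10 tested were above 0 with a median of 1.13 (1.04 within males and 0.60 within females), and 0 passed. B cell markers had 2 of 4 above 0 at a median of -0.10, and summed to 1.97 to 2.88 CPM with Cre and 1.84 to 3.04 CPM without. Neutrophil markers summed to 2.69 to 3.20 CPM in UNx CrePlus and 1.37 to 1.89 CPM in UNx CreMinus libraries. In sham libraries they summed to 1.04 to 2.84 CPM with Cre and 1.03 to 7.39 CPM without.

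**Figure D3:**
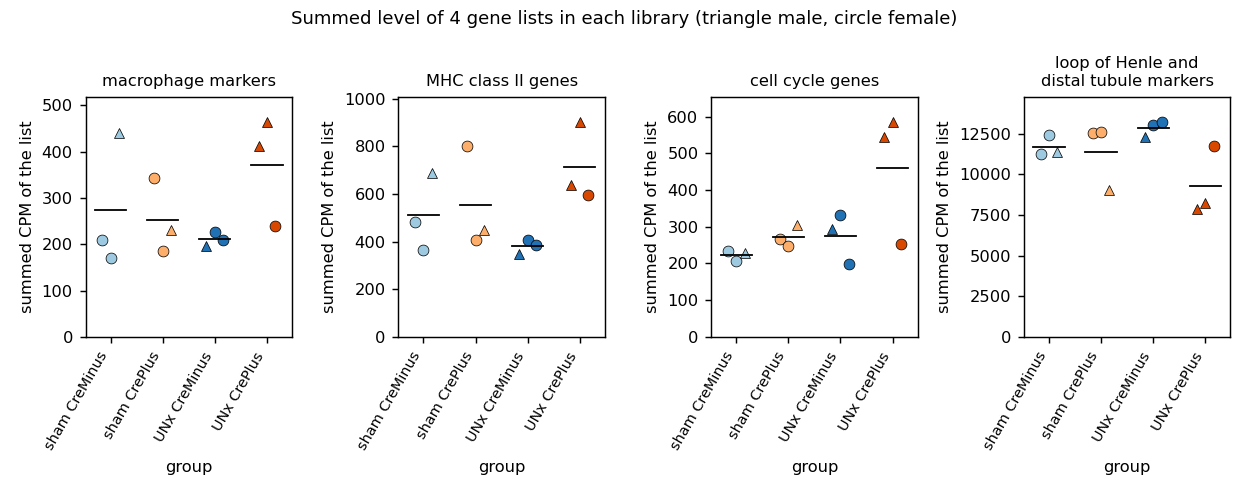
Summed CPM (y axis, from 0) of 4 gene lists in each of the 12 libraries by group (x axis), a triangle for a male and a circle for a female, with a line at the group mean. MHC class II genes are above the UNx CreMinus libraries in all 3 UNx CrePlus libraries (595 to 901 against 346 to 408 CPM), whereas cell cycle genes are high in the 2 UNx CrePlus males.

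In UNx kidneys, genes of the cell cycle, tubular injury and matrix had large medians, which were larger within males than within females. Of 28 cell cycle genes, which are needed for DNA replication and mitosis, 27 were above 0 with a median of 1.06, but 0 passed and in 0 did the groups separate. Their summed level was 545, 585 and 253 CPM in UNx CrePlus libraries and 295, 332 and 199 CPM in UNx CreMinus libraries. The CrePlus female lay within the CreMinus range. The median difference was 1.28 within males, with 28 of 28 above 0, and -0.01 within females, with 14 of 28 above 0. Mcm3, a subunit of the replication helicase, was at 17.6, 17.1 and 7.60 CPM against 7.51, 8.97 and 5.67 CPM, with overlapping groups (adjusted p = 0.348).

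Of 22 matrix and fibroblast genes, 20 were above 0 with a median of 0.68, and 0 passed. Their summed level was 1601, 1408 and 795 CPM in UNx CrePlus libraries and 602, 847 and 970 CPM in UNx CreMinus libraries, so the 2 CrePlus males were high and the CrePlus female was within the CreMinus range. The median difference was 1.28 within males and -0.13 within females, where 4 of 22 were above 0. Mmp2, a matrix protease, was at 19.4, 14 and 14.2 CPM against 8.13, 6.81 and 11.4 CPM and did not pass (adjusted p = 0.373). Mmp2 was the 1 gene of the 22 with separate groups, whereas 8.33% of all tested genes had all CrePlus libraries above all CreMinus libraries. Of 20 tubular injury genes, Cdkn1a was the 1 that rose, against 0.12% of all tested genes. Of the 20, 19 were above 0, and the median was 0.60, with 1.21 within males and 0.10 within females. Lcn2, an injury marker secreted by tubule cells, was at 24.1, 16.3 and 0.732 CPM against 1.106, 2.30 and 0.507 CPM. The CrePlus males were far above all others, the CrePlus female was not, and the adjusted p was 0.329. Of 12 immediate-early genes, which respond to stimuli within minutes, 11 were above 0 within males and 0 within females, and 0 passed.

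The difference between the male and female values was tested in a fit with 8 group means, an analysis chosen after seeing the data. It called 0 genes, and 717 of 14970 had an unadjusted p under 0.05, among them 2 of the 21 called genes. A difference of the Cre effect between sexes was thus not shown for any gene in a design with 1 or 2 UNx libraries per sex and Cre status.

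**Figure D4:**
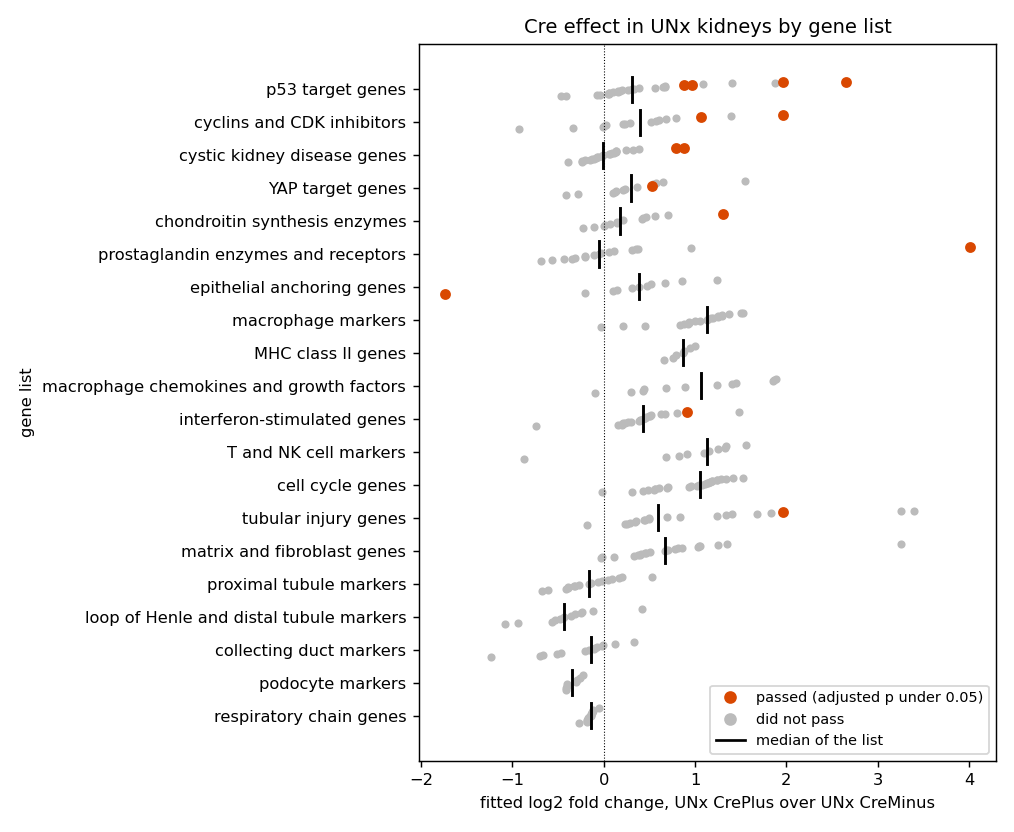
Fitted log2 fold change of UNx CrePlus over UNx CreMinus (x axis) for each tested member of 20 gene lists (y axis), with a bar at the list's median. Filled orange points passed an adjusted p of 0.05, and grey points did not. Macrophage, chemokine, T and NK cell and cell cycle lists have the largest medians (1.06 to 1.13) with no called member, and the p53 list has 4.

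**Figure D5:**
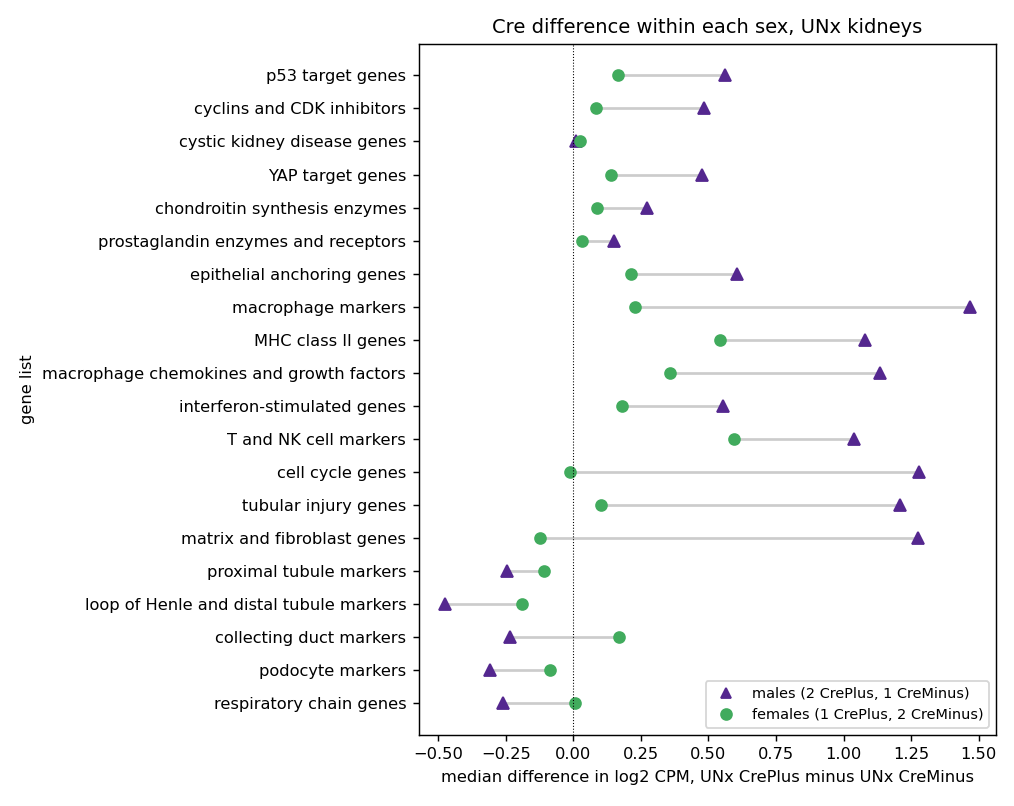
Median difference in log2 CPM between UNx CrePlus and UNx CreMinus libraries (x axis) of the same 20 lists (y axis), within males (triangles) and within females (circles). Cell cycle genes stand at 1.28 and -0.01 and matrix genes at 1.28 and -0.13, whereas MHC class II genes stand at 1.08 and 0.54.

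Markers of tubule segments and podocytes, which filter the blood in the glomerulus, leaned lower in UNx CrePlus libraries, and 0 of them passed. Of 13 markers for Henle's loop and the distal tubule, which recover salt, 12 were below 0 with a median of -0.43. Their summed level was 7863, 8209 and 11735 CPM in UNx CrePlus and 12290, 13034 and 13189 CPM in UNx CreMinus libraries, so the groups did not overlap and the CrePlus female was nearest to the CreMinus libraries. Egf, the growth factor made in this segment, was at 1290, 870.2 and 2065 CPM against 2437, 2700 and 2931 CPM. All CrePlus libraries were lower, with a log2 fold change of -0.93 ± 0.28 and an adjusted p of 0.329. Cldn19, a tight junction protein, was the 1 marker above 0, at 0.42 ± 0.13 (adjusted p = 0.329).

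Proximal tubule markers, which mark the segment that recovers most of the filtrate, had 12 of 17 below 0 and a median of -0.16. Lrp2 and Cubn, the receptors megalin and cubilin that take up filtered protein, were at -0.41 ± 0.15 and -0.39 ± 0.15 (adjusted p = 0.404 for both). In both, CrePlus libraries were below all CreMinus libraries, as in 7.47% of all tested genes. Collecting duct markers had 12 of 14 below 0 (median -0.13) and podocyte markers 8 of 8 (median -0.35). Within females, collecting duct markers had 10 of 14 above 0 at a median of 0.17, against -0.23 within males. Henle's loop and distal tubule markers had medians of -0.47 within males and -0.19 within females, where 5 of 13 were above 0. Proximal tubule markers had -0.24 within males and -0.11 within females, where 8 of 17 were above 0. Podocyte markers had -0.31 within males and -0.09 within females. Respiratory chain genes were below 0 in 14 of 14, at a median of -0.14, with -0.26 within males and 0.0055 within females. Endothelial markers had 9 of 11 above 0, at a median of 0.11. Kidney identity was clear in every UNx library, with proximal tubule markers at 18021 to 22807 summed CPM. In sham kidneys the median log2 fold change was -0.27 for podocyte markers and -0.10 for Henle's loop and distal tubule markers. It was 0.09 there for proximal tubule and -0.01 for collecting duct markers.

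Markers of other tissues that could be caught with a kidney were summed as well. The 4 haemoglobin genes were listed at 0 in every library, so they say nothing of blood content. Alas2, the haem synthesis enzyme of red cells, was at 8.21, 2.95 and 3.64 CPM in UNx CrePlus and at 22, 23 and 12.7 CPM in UNx CreMinus libraries. The groups did not overlap, and Alas2 did not pass (adjusted p = 0.171), but did with a term for sex (0.029) and in the authors' deposited table (0.000288). Adrenal markers summed to 2.90 to 4.33 CPM with Cre and 3.96 to 6.33 CPM without, urothelial markers to 1.55 to 4.90 and 1.93 to 3.63 CPM, and adipose markers to 50.02 to 91.8 and 34.2 to 51.6 CPM. Skeletal muscle markers were at most 0.253 CPM in UNx libraries. Their part in the results was not tested.

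Pathways often studied in polycystic kidneys showed few called genes. Among 16 Wnt pathway genes, 7 were above 0 at a median of -0.08, and 0 passed. Dkk3, a secreted Dickkopf protein, was at 30.3, 31.8 and 28.0 CPM against 13.6, 15.9 and 19.5 CPM, and Wnt9a, a ligand, was at 2.99, 3.17 and 3.27 CPM against 1.29, 1.75 and 1.82 CPM. Sfrp1, a secreted Wnt antagonist, was at 175, 181 and 246 CPM against 333, 341 and 363 CPM. All 3 had separate groups, Dkk3 and Wnt9a higher and Sfrp1 lower, with adjusted p of 0.195, 0.121 and 0.291. Groups were separate in 15.8% of all tested genes. With a term for sex Dkk3 passed, at 0.0191. Primary cilium genes were spread around 0 (5 of 14 above, median -0.04), as were genes of cyclic AMP signalling (6 of 15, median -0.03). Cholesterol synthesis genes had 17 of 19 above 0 at a median of 0.12.

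Esr1, the oestrogen receptor gene, was at 42.0, 55.6 and 23.7 CPM in UNx CrePlus and at 10.1, 4.28 and 4.15 CPM in UNx CreMinus libraries. The groups were far apart, with a log2 fold change of 2.69 ± 0.45 and an adjusted p of 0.0559. Esr1 passed with a term for sex (0.00409) and in the authors' deposited table (4.33e-08). In sham kidneys it was at 31.1, 30.0 and 26.8 CPM with Cre and at 2.99, 4.09 and 8.28 CPM without, again with no overlap. Tamoxifen-inducible Cre is commonly fused to a part of the oestrogen receptor, and reads from such a transgene, if counted here, cannot be told apart from reads of the gene.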

How the data were processed

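RNA-seq was measured in kidney total RNA of 12 mice, in libraries made with the SMART-Seq v4 kit, per the labels' protocols. The authors deposited whole-number read counts per gene, and a table of their own UNx comparison with log2 fold changes and adjusted p-values. The tools named, per the submitters' processing notes, are HTSeq, DESeq2, cutadapt 1.11 and FastQC 0.11.5, with the builds mm10 and GRCm38. Not given in the sources used here are aligner, annotation and strand setting. The 6 UNx count columns were identical in that table.

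Counts were analysed with edgeR 4.0.16 in R 4.3.3. Of 24062 genes (5 repeated symbols kept once), filterByExpr kept 14970. Library sizes were scaled by TMM, and the quasi-likelihood test was run on a model of 4 group means over the 12 libraries (8 residual degrees of freedom). Called means a Benjamini-Hochberg adjusted p under 0.05. The SE was taken as the log2 fold change over the root of the F statistic. Named are Pkd1, Irf5, every called gene and up to 4 members of smallest p per list. Genes next to the threshold are also named. The members and the 47 lists (568 of 613 entries tested) were chosen with earlier results of these data known. DESeq2 1.42.0 and other settings were alternatives. The scripts were tested on simulated data.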

Additional observations from a re-analysis of the deposited data

How the results depend on the processing

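The 21 genes called after UNx became 13 with DESeq2's size factors in edgeR, 188 in DESeq2 (111 higher, 77 lower), 9 from the UNx libraries alone, 112 with a term for sex, 8 with terms for sex and depth, 5 in females alone, 411 in males alone (1 residual degree of freedom), 1 in the 4 deep UNx libraries, which was not one of the 21, and 267 in the authors' deposited table. Leaving out 1 library gave 6 to 48. No filter on low counts gave 18, a mean of at least 1 CPM 25 and thinning to the smallest library total 23. The 4 genes called in sham kidneys became 43 in DESeq2, 10 with a term for sex, 7 in females, 41 in males and 0 to 3 without 1 library. The interaction count of 0 became 116 in males alone and stayed 0 in the other fits. Of the named genes, Irf5 turned to -0.10, Lcn2 to -0.94 and Hmox1 to -0.52 in females alone, and Anks6 to 0.0032 in males alone. Without 1 library, the log2 fold change ran from -0.0199 to 0.68 for Irf5, from -0.59 to 0.40 for Ftcd, from -0.15 to 0.34 for Amdhd1 and from -0.0395 (without UNx CrePlus replicate 1) to 2.47 for Hmox1. The cause was not tested. No setting moved the median log2 fold change of all genes beyond a range from -0.02 to 0.03. Where 1 library is left in a group, it is assumed to vary like the others. No paired analysis was possible because the labels give no replicate numbers. Among UNx libraries depth was lowest in CreMinus replicates 2 and 3, which limits low genes such as T and NK cell markers.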

Other observations

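The fit with a term for sex called 91 genes besides the 21. The genes given here were chosen after their values were seen, as those of small adjusted p in that fit. Gpc3, a glypican of the cell surface, was at 45.6, 41.2 and 49.3 CPM in UNx CrePlus libraries and at 17.7, 30.6 and 26.3 CPM in UNx CreMinus libraries. The groups did not overlap, with an adjusted p of 0.23 without and 0.00417 with the term for sex. St3gal4, a sialyltransferase, was at 17.7, 15.6 and 17.6 CPM against 7.07, 9.75 and 10.4 CPM, with an adjusted p of 0.0892 without and 0.00409 with the term. Rrm1, the large subunit of ribonucleotide reductase, was at 43.1, 36.7 and 35.8 CPM against 18.2, 25.1 and 17.8 CPM. Its groups were separate, with adjusted p of 0.0627 and 0.0185. Ninl, a centrosomal protein, was lower, at 23.7, 26.9 and 35.0 CPM in CrePlus against 48.4, 54.5 and 57.4 CPM in CreMinus libraries. Its adjusted p was 0.0522 without and 0.00292 with the term.

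Hmox1, which encodes haem oxygenase 1, was high in a single library, at 265 CPM in UNx CrePlus replicate 1 against 37.5 and 16.2 CPM in the other UNx CrePlus libraries. UNx CreMinus libraries had 35.1, 29.2 and 17.6 CPM.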
